A study of Bos taurus with 15 samples.

Results

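The genes described here are interferon-stimulated antiviral effectors other than the best known families. They were measured in cultures labelled as bovine endometrial epithelial cells, the cells that line the uterus. The genes were chosen by name: 10 gene symbols were looked up in the gene name column of the deposited RNA-seq table. Of these, 7 symbols (RSAD2, CMPK2, SAMD9, RTP4, EPSTI1, PLAC8 and PML) matched 8 of 19994 rows, because PLAC8 has 2 rows. HELZ2 and SP110 matched no gene name and were not analysed here. BST2 also matched no gene name, but 2 rows without a name are described in the table as bone marrow stromal antigen 2, the protein that BST2 encodes. They are shown as BST2 row 1 and BST2 row 2 and are kept apart in the counts.

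The cells came from the scraped uterine lining of 4 beef cows, were pooled before culture and were used at passage 3. All cultures held these cells near confluence for 48 h in a defined oviduct-type medium with serum, in wells that each carried a transwell insert. Control bEEC wells (called cells alone below) had no embryo. Contact⎼ wells (transwell below) had 15 ± 1 in vitro produced morulae of day 5.5 in the insert, without contact with the cells. Contact+ wells (contact below) had the same number of morulae lying on the cells. Each group has 5 libraries. All come from the same pooled stock, and the labels tie no library to an experimental replicate, so a p-value speaks for culture-to-culture spread, some of which may be technical, and not for differences between animals.

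Type I interferons bind a receptor made of IFNAR1 and IFNAR2, and the kinases JAK1 and TYK2 then activate transcription factors, STAT2 and IRF9 among them, which switch on a large set of genes. In ruminants the trophoblast of the early embryo secretes interferon tau, a type I interferon that signals pregnancy to the uterus, and the endometrium answers with the same antiviral genes. The genes below act at different points: nucleotide chemistry (RSAD2, CMPK2), the cell surface (BST2), the cytoplasm (SAMD9, RTP4, EPSTI1, PLAC8) and the nucleus (PML).

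Reads assigned to genes numbered 15507719 to 18618467 per library for cells alone, 12938091 to 19792557 for transwell and 4195091 to 19268029 for contact, where libraries 97 and 108 are the shallow ones. Levels are normalized counts, that is, reads divided by 1 size factor per library. The epithelial label was checked against 16 markers. KRT8 ranged from 29337 to 40317 normalized counts over all libraries and CDH1 from 951.5 to 1698, while EPCAM, CLDN4, CLDN7, GRHL2 and KRT5 stayed at or under 4.47 and FOXA2 was listed at 0. Stromal markers were present at higher summed levels than the epithelial ones. In cells alone the 12 stromal rows summed to 363385 to 387505 normalized counts, and the 16 epithelial rows to 51058 to 68005. COL1A1 ranged from 82259 to 116621 and DCN from 31731 to 44862 over all libraries, while THY1 had a mean of 3.05 in cells alone. The cultures therefore cannot be taken as purely epithelial from these markers. Of 11 tested stromal markers, FAP was lower in contact than in cells alone by a log2 difference of -0.61 (limma adjusted p = 2.19e-06) and than in transwell by -0.48 (limma adjusted p = 0.000184), and LUM was 0.42 higher in contact than in cells alone (limma adjusted p = 0.0135). The summed leukocyte list had 336.6 to 682.0 normalized counts for cells alone, 298.2 to 527.2 for transwell and 272.2 to 678.8 for contact, with CD2, CD3D and TYROBP of 16 rows listed at 0 and PTPRC under 1. CD68, CD14, CD74 and FCER1G were present, with means of 237.9, 117.6, 62.9 and 34.9 normalized counts in cells alone. Of 5 tested leukocyte markers, CD14 was lower in contact than in cells alone by -0.52 (limma adjusted p = 0.00329) and than in transwell by -0.41 (limma adjusted p = 0.0345). The summed embryo list had 139.2 to 188.7, 105.5 to 213.1 and 106.9 to 202.8, with NANOG, LIN28A, KRT4, PAG2 and PAG11 of 14 rows listed at 0. NLRP5, IFNT and OOEP were present in cells alone, which had no embryo, with means of 106.2, 42.8 and 17.1 normalized counts. Of 3 tested embryo markers, limma called 0 in each comparison. The summed list therefore does not measure embryo material here. The part of these markers in the results below was not tested.

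Of the 8 matched rows, 7 passed the filter on low values (at least 10 in at least 5 libraries) and were tested. All 7 were higher in contact than in cells alone, higher in transwell than in cells alone, and higher in contact than in transwell (limma, adjusted p under 0.05). The remaining matched row, PLAC8A, had few reads and did not pass the filter. PLAC8B, like BST2 row 2, passed it only through the embryo groups, where it is high. Both BST2 rows were higher in the same 3 comparisons. Over all 12559 genes tested, 7.17% were called higher in contact than cells alone, 1.48% in transwell than cells alone, 3.73% in contact than transwell, and 1.18% in all 3. The median log2 fold change of the 7 rows was 5.19, 4.05 and 1.38 in these comparisons, beside -0.01, -0.01 and 0.01 over all genes tested. In each of the 9 rows every transwell library lay above every cells-alone library, and every contact library above every transwell library. Such separation held for 1.98% of all genes tested in the first case, 3.44% in the second and 7.45% between contact and cells alone. The genes were chosen with earlier results of these data known, so these counts describe them and are not independent evidence of a response. In these bulk libraries, more responding cells and more RNA per cell cannot be told apart.

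**Figure D1:**
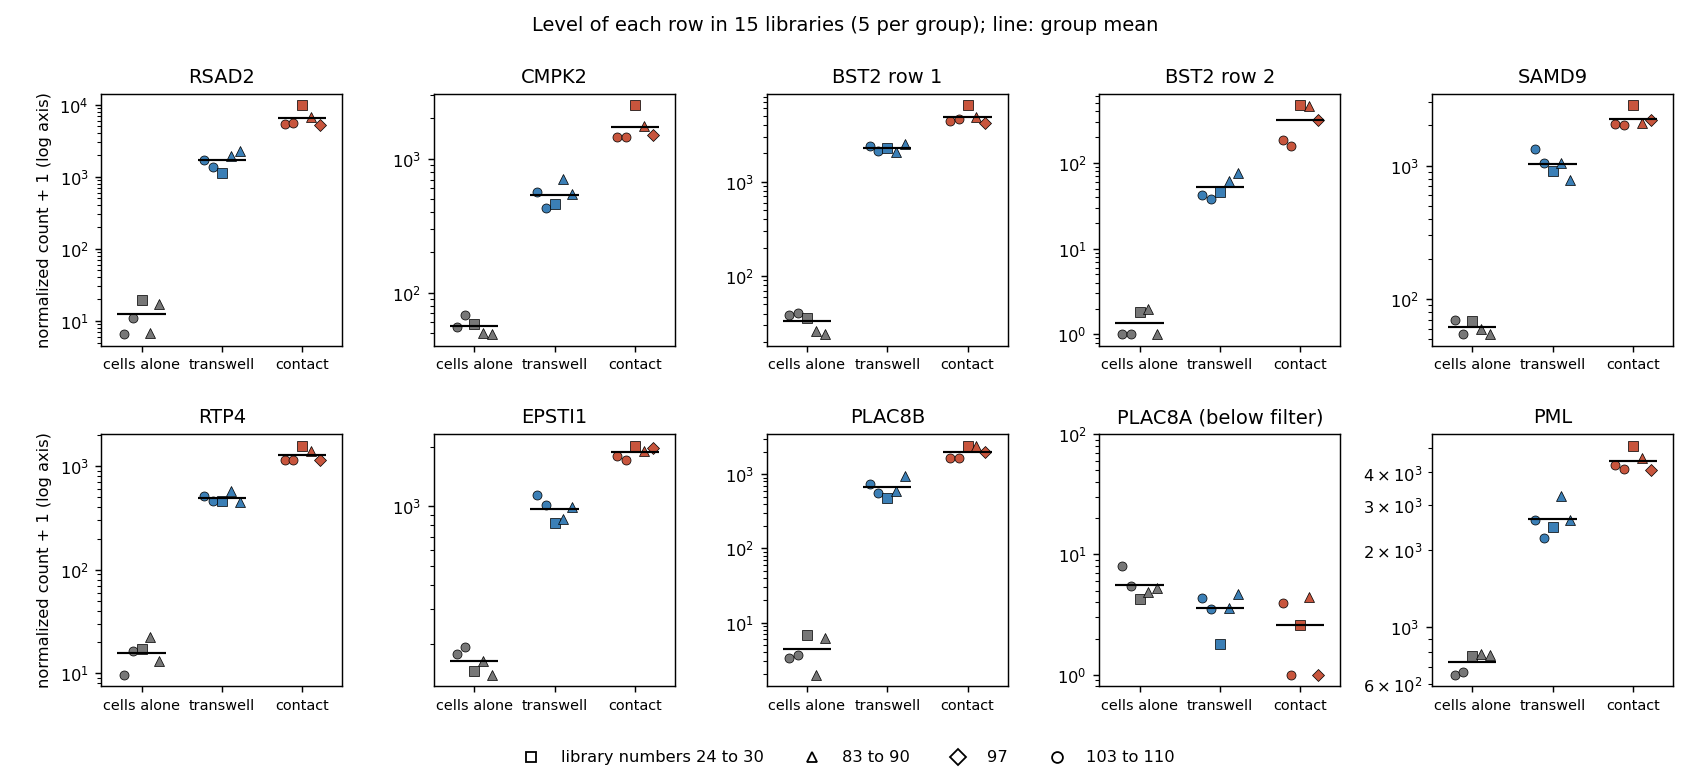
Normalized count plus 1, on log axes, of each of the 10 rows in the 15 libraries, with 1 point per library, marker shapes for the runs of library numbers and a line at each group mean. In 9 panels the 3 groups do not overlap and rise from cells alone through transwell to contact, while PLAC8A stays at or under 7.05 normalized counts.

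The log2 fold changes spread widely between members. Contact against cells alone ran from 2.60 for PML to 9.17 for RSAD2, which placed RSAD2 at rank 3 and PML at rank 67 of 12559 genes. All 9 rows were called and higher by over 2 in contact than cells alone, as were 0.645% of all genes tested, and 8 of them were in transwell, beside 0.47% of all genes. Only BST2 row 2 passed 2 between contact and transwell, beside 0.0955%. Contact against transwell ran from 0.76 for PML to 1.96 for RSAD2 among the 7 rows, and reached 2.50 for BST2 row 2. The transwell cultures thus held between 16.3% (BST2 row 2) and 59.4% (PML) of the mean normalized count of the contact cultures. Together the 10 rows took 0.00701% to 0.00741% of assigned reads in cells alone, 0.0595% to 0.0765% in transwell and 0.156% to 0.224% in contact.

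**Figure D2:**
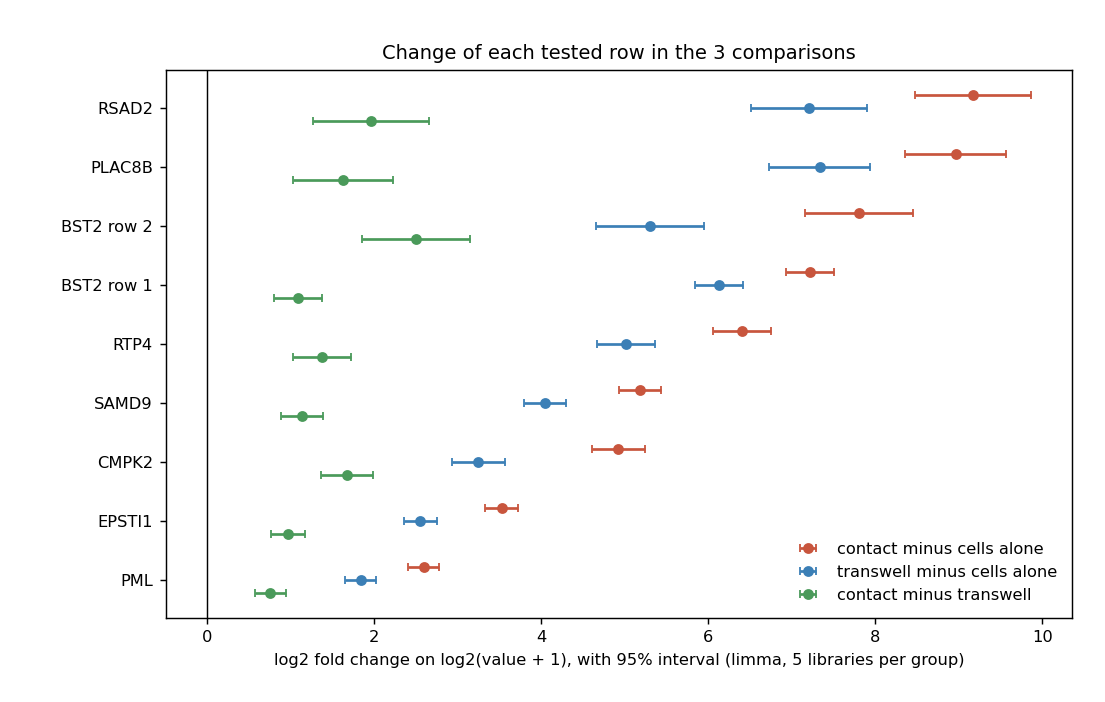
Log2 fold change with its 95% interval for the 9 tested rows in the 3 comparisons, from limma on log2(value + 1) with 5 libraries per group. No interval reaches 0, and the order of the rows differs between the contact against cells alone values and the contact against transwell values.

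Levels below are given by library in ascending order of the library numbers in the titles. That order is 24, 83, 84 and a pair just below 107 for cells alone, 30, 89, 90, 109 and 110 for transwell, and 28, 87, 97, 107 and 108 for contact. Runs are ranges of these numbers grouped for this description, and the labels name no run or batch.

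RSAD2 encodes viperin, a radical S-adenosylmethionine enzyme that turns CTP into a chain terminator of viral RNA synthesis. Its normalized counts in cells alone were 18.7, 5.81, 16.3, 5.48 and 9.94. In transwell they were 1118, 1943, 2289, 1719 and 1356, and in contact 9851, 6801, 5226, 5321 and 5549. The lowest transwell library lay far above the highest library of cells alone, and library 28 stood above the other contact libraries. RSAD2 rose by a log2 fold change of 9.17 ± 0.32 SE in contact (limma adjusted p = 3.22e-11) and of 7.21 ± 0.32 in transwell (limma adjusted p = 1.09e-09). Contact exceeded transwell by 1.96 ± 0.32 (limma adjusted p = 0.00222). Within the runs of library numbers, the contact against transwell difference was 3.14 in 24 to 30, 1.69 in 83 to 90 and 1.83 in the run that ends at 110, and the first of these rests on 1 library per group. Leaving out library 28 gave 1.80.

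CMPK2 encodes a mitochondrial kinase of pyrimidine nucleotides, and in the RefSeq table of assembly ARS-UCD2.0 it is the protein-coding gene next to RSAD2. Its normalized counts in cells alone were 57.0, 49.4, 47.9, 54.8 and 66.9. They were 461.1, 700.7, 540.6, 562.3 and 426.1 in transwell, and 2516, 1762, 1495, 1463 and 1448 in contact. Cells alone therefore already held a measurable level with little spread, and library 28 was again the highest of its group. CMPK2 rose by 4.93 ± 0.15 in contact (limma adjusted p = 1.83e-15), by 3.25 ± 0.15 in transwell (limma adjusted p = 3.04e-12), and was 1.68 ± 0.15 higher in contact than transwell (limma adjusted p = 1.10e-06).

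The neighbours differed in how far they moved. The RSAD2 count divided by the CMPK2 count was 0.1 to 0.339 in cells alone, 2.42 to 4.23 in transwell and 3.49 to 3.92 in contact. On the log2 scale this ratio was higher than in cells alone by 4.24 in contact and by 3.96 in transwell. Each had an exact permutation p of 0.00794 (two-sided, the smallest that 5 against 5 allows), or 0.0159 after Benjamini-Hochberg adjustment over 6 ratio tests. Between contact and transwell the log2 ratio differed by 0.28, with an exact permutation p of 0.0714 (adjusted 0.0857). Without transwell library 90, the highest of its group, that difference was 0.40 with an unadjusted exact permutation p of 0.0159. This was the only 1 of the alternatives run for this ratio that changed the outcome, so the difference is not established. The ratios were chosen for testing after the values had been seen.

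**Figure D3:**
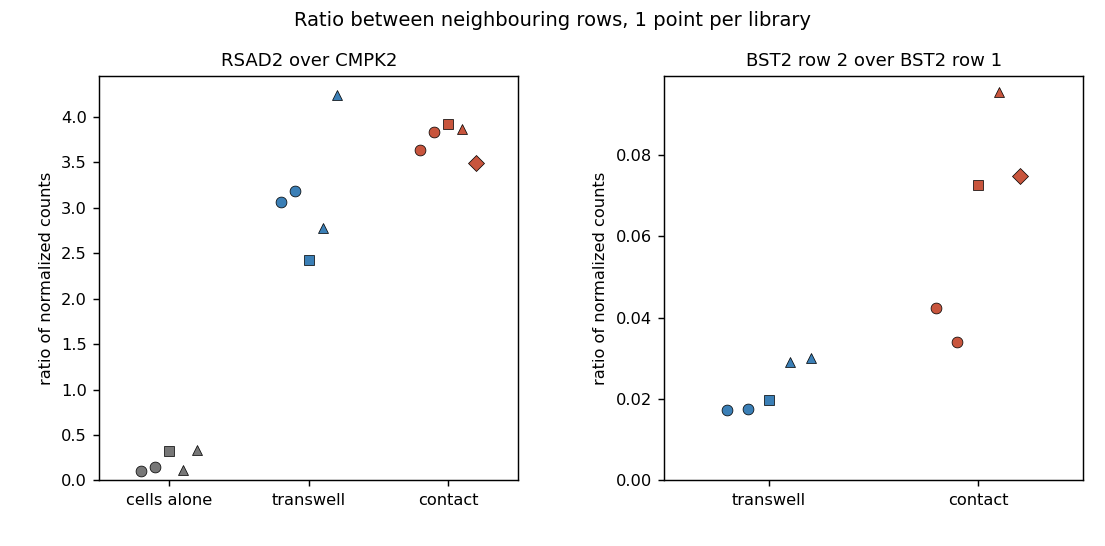
Ratio of normalized counts between 2 rows in each library, on linear axes from 0, with marker shapes for the runs of library numbers. RSAD2 over CMPK2 is on the left for the 3 groups. BST2 row 2 over BST2 row 1 is on the right for transwell and contact. The RSAD2 to CMPK2 ratio lies at or under 0.339 in cells alone and at or above 2.42 with embryos, and the BST2 ratio is higher in all 5 contact libraries than in the 5 transwell libraries.

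BST2 encodes tetherin, a membrane protein that holds budding enveloped viruses at the cell surface. The RefSeq table places the genes of both rows on chromosome 7 with 1 other protein-coding gene between them. BST2 row 1 (ENSBTAG00000045588) had 35.01, 25.2, 23.1, 37.6 and 39.8 normalized counts in cells alone. It had 2255, 2085, 2498, 2389 and 2127 in transwell, and 6494, 4820, 4170, 4357 and 4632 in contact. The transwell libraries agreed closely, with a coefficient of variation of 7.66%, against 19.0% in contact, where library 28 stood apart. BST2 row 1 rose by 7.22 ± 0.14 in contact (limma adjusted p = 1.49e-18) and 6.13 ± 0.14 in transwell (limma adjusted p = 3.96e-17), and was 1.09 ± 0.14 higher in contact than transwell (limma adjusted p = 4.87e-05).

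BST2 row 2 (ENSBTAG00000008021) was close to silent in cells alone, with 0 reads in 3 libraries and 1 read in each of libraries 24 and 83. Its normalized counts were 44.6, 60.6, 75.3, 41.3 and 37.4 in transwell, and 471.8, 460.1, 312.5, 184.5 and 158.0 in contact. Among the contact libraries, 107 and 108 lay below the other 3. Over the summed reads the level was 154-fold higher in transwell than in cells alone (exact 95% interval 42.2 to 1275) and 992-fold higher in contact (274 to 8196), and these intervals cover counting error only. The fitted log2 fold changes of this row against cells alone depend on the pseudocount. They were 7.81 in contact and 5.31 in transwell with a pseudocount of 1, and ranged from 4.85 to 9.82 and from 2.54 to 7.20 over the alternatives, all called. Contact against transwell did not rest on the empty controls, at 2.50 ± 0.31 (limma adjusted p = 2.63e-05) with a range of 2.31 to 2.75.

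BST2 row 2 gained on BST2 row 1 between transwell and contact. Its normalized count was 0.0173 to 0.0301 of that of row 1 in transwell and 0.0341 to 0.0954 in contact. The log2 ratio was 1.41 higher in contact (exact permutation p = 0.00794, adjusted 0.0159 over the 6 ratio tests). Within contact the ratio was lowest in libraries 107 and 108. Reads that fit both genes could have been split or dropped in the counting, which is not given in the sources used here, so the division between the rows is uncertain.

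SAMD9 encodes a cytoplasmic protein known in human cells as a restriction factor of poxviruses. Its normalized counts were 67.6, 59.1, 53.9, 68.1 and 53.3 in cells alone. They were 916.4, 1050, 781.5, 1324 and 1052 in transwell, and 2841, 2098, 2211, 2051 and 2012 in contact. Library 28 stood well above the other 4 contact libraries, which lay within a narrow band. SAMD9 rose by 5.19 ± 0.12 in contact (limma adjusted p = 5.58e-18) and 4.05 ± 0.12 in transwell (limma adjusted p = 6.12e-16), and was 1.14 ± 0.12 higher in contact than transwell (limma adjusted p = 4.86e-06).

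RTP4 encodes a chaperone of certain G protein-coupled receptors. It had 16.3, 21.3, 11.97, 8.61 and 15.4 normalized counts in cells alone. It had 460.2, 570.1, 445.2, 515.5 and 463.5 in transwell, and 1581, 1400, 1156, 1137 and 1160 in contact. The spread was smallest in transwell, with a coefficient of variation of 10.5%. RTP4 rose by 6.40 ± 0.17 in contact (limma adjusted p = 7.45e-17) and 5.02 ± 0.17 in transwell (limma adjusted p = 8.18e-15), and was 1.38 ± 0.17 higher in contact than transwell (limma adjusted p = 2.43e-05). RTP1 and RTP2, its relatives in olfactory receptor transport, were listed at 0 in every library. RTP3 did not pass the filter, with means of 4.45 normalized counts in cells alone, 2.47 in transwell and 1.22 in contact.

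EPSTI1, named for its induction in epithelial cells by stroma, was already well detected in cells alone, at 144.9, 162.7, 138.5, 176.9 and 191.5 normalized counts. It had 817.4, 861.2, 983.6, 1142 and 1012 in transwell, and 2026, 1895, 1973, 1786 and 1717 in contact. Its contact libraries were the most uniform of any row, with a coefficient of variation of 6.82%. EPSTI1 rose by 3.53 ± 0.10 in contact (limma adjusted p = 1.48e-17) and 2.56 ± 0.10 in transwell (limma adjusted p = 8.85e-15), and was 0.97 ± 0.10 higher in contact than transwell (limma adjusted p = 1.37e-06).

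PLAC8 encodes a small cysteine-rich protein whose transcript has been followed in cattle as a marker of the endometrium in early pregnancy. The RefSeq table names the genes of its rows PLAC8B and PLAC8A, and lists them next to each other on chromosome 6. PLAC8B (ENSBTAG00000031750) had 5.70, 0.969, 5.13, 2.35 and 2.71 normalized counts in cells alone. It had 477.3, 590.6, 950.8, 727.5 and 559.8 in transwell, and 2426, 2369, 1979, 1669 and 1630 in contact. It went from 20 reads in all 5 libraries of cells alone to 3881 in transwell and 9318 in contact. PLAC8B rose by 8.96 ± 0.28 in contact (limma adjusted p = 4.63e-13) and 7.33 ± 0.28 in transwell (limma adjusted p = 1.18e-11), and was 1.63 ± 0.28 higher in contact than transwell (limma adjusted p = 0.00222). Like BST2 row 2, it passed the filter on low values through the embryo groups alone, since no library of cells alone reached 10 normalized counts. RSAD2 reached 10 in 2 libraries of cells alone and RTP4 in 4, also fewer than the 5 that the filter needs.

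PLAC8A (ENSBTAG00000009849) did not follow its neighbour. Its normalized counts were 3.26, 3.88, 4.28, 7.05 and 4.52 in cells alone, 0.812, 2.56, 3.73, 3.35 and 2.49 in transwell, and 1.61, 3.46, 0, 2.93 and 0 in contact. These are 27, 15 and 10 reads in all, so the row did not pass the filter. On log2(value + 1) the mean was lower than in cells alone by a difference of -1.35 in contact (exact permutation p = 0.0159) and of -0.68 in transwell (exact permutation p = 0.0238), both two-sided and unadjusted. The zeros come from the shallow contact libraries 97 and 108, where a count of 0 allows up to 10.1 and 7.08 normalized counts. Without them the difference was -0.61 with an exact permutation p of 0.0714. Over summed reads the contact level was 0.480 of that of cells alone, with an exact 95% interval of 0.207 to 1.02. Fitted without the filter, among 16483 genes, the contact difference had a limma adjusted p of 0.0467 and the transwell difference one of 0.780. Any direction of PLAC8A therefore rests on few reads. Reads shared with PLAC8B could have been assigned to either row.

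PML is the scaffold of the nuclear bodies that carry its name and that restrict several DNA viruses. Among the 9 tested rows it had the highest share of its contact level already present in cells alone, with 770.3, 783.7, 779.0, 652.2 and 667.6 normalized counts there. It had 2455, 3225, 2620, 2621 and 2229 in transwell, and 5086, 4569, 4100, 4258 and 4118 in contact. The groups were separated although the change was the smallest of the 9 rows. PML rose by 2.60 ± 0.09 in contact (limma adjusted p = 9.88e-16) and 1.84 ± 0.09 in transwell (limma adjusted p = 8.82e-13), and was 0.76 ± 0.09 higher in contact than transwell (limma adjusted p = 1.07e-05).

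The members did not vary together in every group. In contact, library 28 was the highest in 9 of 9 tested rows, by 0.11 to 0.71 above the group mean on the log2 scale. Over all genes tested it was the highest contact library for 21.2%, and among the 148 genes called higher in all 3 comparisons for 79.7%. In transwell no library led throughout: library 90 was the highest in 4 rows (RSAD2, PLAC8B and both BST2 rows) and the lowest in 2 (SAMD9 and RTP4). Library 89 was the highest for CMPK2, RTP4 and PML, and library 109 for SAMD9 and EPSTI1. The contact against transwell difference was largest within the run 24 to 30 for 9 of 9 rows, where contact library 28 meets transwell library 30. All 9 rows kept their direction in each of the 3 runs that hold several groups.

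**Figure D4:**
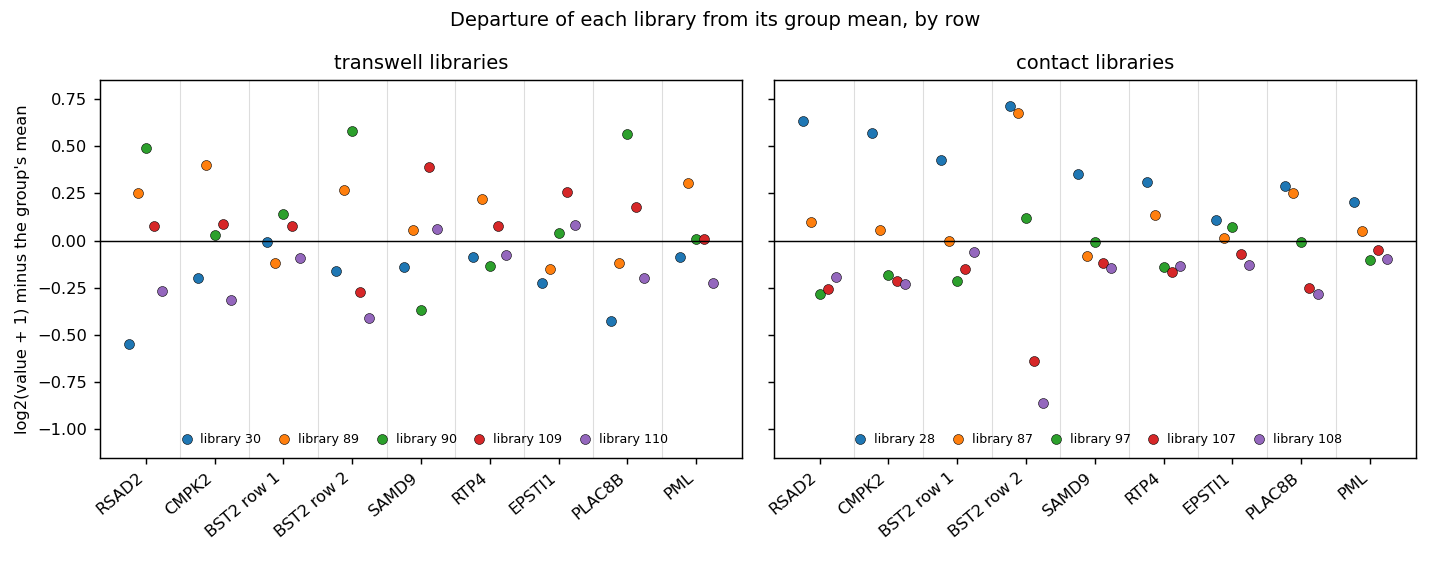
Departure of each transwell library (left) and contact library (right) from its group mean on log2(value + 1), for the 9 tested rows. Library 28 is the highest contact library in every row, whereas the highest transwell library changes between 90, 89 and 109.

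Likeness was measured as the root mean square difference between log2(value + 1) profiles over the 15 libraries after each gene's own mean was taken off. By this measure RSAD2 and PLAC8B were each other's nearest gene, at 0.267, and both had ISG15 and ZBP1 as the other nearest genes. CMPK2 lay nearest to IFIH1 (0.263), not to its neighbour RSAD2. BST2 row 1 lay nearest to IFIT1 (0.302), SAMD9 to UBA7 (0.268), RTP4 to IFI44L (0.301), EPSTI1 to PARP14 (0.183) and PML to TRIM21 (0.130). BST2 row 2 had no close partner, with IFIT2 nearest at 0.623.

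The interferon signalling genes around them changed in part. Of 15 tested rows in a list of 16 receptor, kinase, transcription factor and inhibitor genes, 8 were higher and 1 lower in contact than cells alone. In transwell 5 were higher. In contact against transwell 5 were higher, which fell to 3 without transwell library 30 or 110 or contact library 28 or 87. The shares called higher over all genes tested were 7.17%, 1.48% and 3.73%, and 726 of 12559 were lower in contact than cells alone. The list's median log2 fold change was 0.23, 0.16 and 0.15. IRF9, the DNA-binding partner of STAT2, rose by 2.73 in transwell (limma adjusted p = 9.21e-17) and 2.87 in contact (limma adjusted p = 2.29e-17), with a contact against transwell difference of 0.14 that did not pass (limma adjusted p = 0.356). STAT2 rose by 0.43 and 1.03, and USP18, which restrains the receptor, by 4.93 and 5.69. IFNAR1 fell by 0.50 in contact (limma adjusted p = 0.00737), while IFNAR2 and JAK1 had log2 fold changes of -0.16 and -0.05 that did not pass (limma adjusted p = 0.336 and 0.750). IRF3 rose by 0.52 in transwell (limma adjusted p = 9.08e-05). It was 0.26 higher in contact than transwell (limma adjusted p = 0.0450), a call lost in 15 of the alternatives. IRF1 was 0.78 higher in contact than transwell (limma adjusted p = 0.0233), a call lost without transwell library 30 or 110 or contact library 28 or 87 (limma adjusted p = 0.0543, 0.0542, 0.0634 and 0.0624). IRF7 was listed at 0 in every library.

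Of 36 tested rows in a list of 43 other antiviral effectors, 34 were higher in contact and 33 in transwell than cells alone, and 31 were higher in contact than transwell. The medians were 4.09, 2.92 and 0.74. Beside these counts, 7.17%, 1.48% and 3.73% of all genes tested were called higher. This list and the signalling list were chosen with earlier results of these data known, so their counts only describe them. OAS1Y and OAS1X, which make the activator of RNase L, rose by 5.89 and 6.53 in transwell and by 6.42 and 7.44 in contact. PARP9 rose by 3.66 and 4.41 and IFIT1, which binds viral RNA, by 6.26 and 7.40. GBP4, a guanylate-binding GTPase, and IFI44L were 1.93 and 1.36 higher in contact than transwell. IFITM3, which blocks viral entry, rose by 2.40 in transwell and 2.68 in contact. Its contact against transwell difference of 0.28 did not pass in limma (limma adjusted p = 0.0729). IFIT2, a relative of IFIT1, rose by 3.97 and 6.91 and differed by 2.95 between the embryo groups. ISG20, an exonuclease, did not pass in limma in any of the 3 comparisons. Its log2 fold changes were 0.57, -0.05 and 0.62 (limma adjusted p = 0.0852, 0.971 and 0.0980). DESeq2 on recovered reads called 35 of the 36 rows higher in contact than transwell, so IFITM3 and ISG20 cannot both have failed there. Against cells alone, edgeR and DESeq2 called 35 higher in contact, beside 34 in limma. Which rows these were is not given here. SAMHD1, which degrades deoxynucleotides, was listed at 0 in every library.

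Some partners of PML were called. Of 22 tested genes of the nuclear bodies and the SP100 family, 6 were higher and 1 lower in contact than cells alone, 3 were higher in transwell, and 4 were higher in contact than transwell, with medians of 0.07, 0.02 and 0.08. Over all genes tested 7.17%, 1.48% and 3.73% were called higher, and 726 of 12559 lower in contact than cells alone. SP140L, a nuclear body protein related to SP110, went from 75.0 ± 9.79 to 202.6 ± 26.8 and 414.9 ± 59.5 normalized counts (SD, n = 5 per group). It rose by 1.42 in transwell (limma adjusted p = 1.63e-08) and 2.45 in contact (limma adjusted p = 6.01e-13). MORC3, an ATPase of the bodies, rose by 0.61 and 1.12, and DAXX, a histone chaperone there, by 0.53 and 0.91. SUMO3 rose by 0.32 in contact (limma adjusted p = 0.00335). BLM, a helicase, was 0.47 higher in contact than transwell (limma adjusted p = 0.0213), a call lost without transwell library 110 or contact library 87 or 97 (limma adjusted p = 0.0614, 0.0714 and 0.0602).

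Few of the genes that supply viperin and CMPK2 were called. The list held iron-sulfur assembly factors, pyrimidine nucleotide enzymes and viperin partners. Of 21 tested genes, 2 were higher and 1 lower in contact than cells alone. These shares are close to those of all genes tested, 7.17% higher and 726 of 12559 lower. The count of 2 became 5 with a block by run of library numbers and 4 without contact library 108. It was 1 without both shallow contact libraries, or without contact library 28, 87 or 97. It was also 1 without 1 of 3 libraries of cells alone (83 and the pair just below 107). At an unadjusted p under 0.05 stood 8 of the 21 in contact against cells alone and 5 in contact against transwell, where 1 was called. In transwell limma called 0 genes, with 0 at an unadjusted p under 0.05, and edgeR and DESeq2 on recovered reads also called 0 higher. DCK, the deoxycytidine kinase, went from 177.2 ± 17.3 in cells alone and 183.5 ± 12.04 in transwell to 277.6 ± 57.0 normalized counts in contact. It was higher in contact than cells alone by 0.63 (limma adjusted p = 0.000867) and than transwell by 0.57 (limma adjusted p = 0.00416). UMPS and CAD, enzymes of pyrimidine synthesis, were higher by 0.24 and lower by a difference of -0.27 in contact (limma adjusted p = 0.0397 and 0.0432). These calls were lost in 8 and 11 of the alternatives. CMPK1, a cytosolic kinase named like CMPK2, had 549.8 ± 35.8, 563.8 ± 79.3 and 570.4 ± 30.2 normalized counts and did not pass. CIAO1, which takes part in inserting the iron-sulfur cluster of viperin in human cells, and CTPS1, which makes CTP, had log2 fold changes of 0.00 and 0.15 in contact that did not pass (limma adjusted p = 0.994 and 0.195).

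Among genes listed for likeness to the members in family or only in name, 5 of 11 were tested. PLAC9 is in this list by its name and is not treated here as a family member of PLAC8. SP140L was called in all 3 comparisons, and PLAC9, a small secreted protein, was lower in contact than cells alone by a difference of -0.71 (limma adjusted p = 0.0188), a call lost without contact library 28 or control library 83 or 84 (limma adjusted p = 0.0612, 0.0695 and 0.0596). Of 8 tested partners of HELZ2, a nuclear receptor coactivator, limma called 0 in each comparison, with 0 at an unadjusted p under 0.05. Among them edgeR and DESeq2 called 0 higher. Of all genes tested, 7.17%, 1.48% and 3.73% were called higher in the 3 comparisons, and 726 of 12559 lower in contact than cells alone. A count of 0 among 8 genes is thus near the share over all genes.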

How the data were processed

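Poly(A) RNA of 15 cultures was sequenced as paired reads from strand-specific DNA nanoball libraries, per the labels' protocols. The deposited table holds a signal per gene and library, gene counts divided by 1 size factor, as the values show. FastQC 0.71, featureCounts 1.6.2, HISAT2 2.1.0 and DESeq2 1.18.1 are listed without a role, per the submitters' processing notes. The build and annotation, and whether counting used strand, are not given in the sources used. Beside these stand log2 fold changes, a Wald score, a p-value and an FDR for each comparison, deposited by the authors.

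Every value (100% in each library, within 0.01 of a read) was a whole multiple of the library's smallest value above 0, which gave back whole reads. Genes with a value of at least 10 in at least 5 libraries (12559) were fitted on log2(value + 1) in R 4.3.3 by limma 3.58.1, using trended and robust moderation and 1 coefficient per group over all libraries. Adjusted p is Benjamini-Hochberg over all genes tested, with a threshold of 0.05. Fold changes on this scale understate the change of low genes. Count tests on the recovered reads used edgeR 4.0.16 and DESeq2 1.42.0, and edgeR with TMM called 928, 188 and 473 genes higher in contact against cells alone, transwell against cells alone and contact against transwell.

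The members and the gene lists were chosen with earlier results of these data known. All members are named. From the lists, genes were taken from the 4 with the smallest p among called ones per list and comparison. Genes of the signalling chain, its receptor genes included, were also taken. Some list genes that this rule names are not reported here. IFITM3, IFIT2, ISG20, SAMHD1, IRF7 and the other genes given as not passing, apart from the signalling chain, were named after their values were seen. RefSeq (ARS-UCD2.0) served only for names and neighbours. The planned description of promoters and proteins was not made, since no sequence table was used here.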

Additional observations from a re-analysis of the deposited data

Results flagged for a closer look

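In contact, library 28 stood apart from the other libraries for BST2 row 1, at 6494 normalized counts, and for SAMD9, at 2841. In each case its gap to the next library took more than 0.71 of the group's whole range (0.720 and 0.759). Of 27 groups of 5 libraries searched, 2 were picked out, and chance picks about 1 in 20. Without contact library 28 the contact against transwell difference was 0.99 for BST2 row 1 and 1.05 for SAMD9, and both were still called.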

How the results depend on the processing

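All 7 matched rows that were tested kept their calls in the 3 comparisons in every alternative, as did both BST2 rows (729 of 729 values). The alternatives were edgeR, DESeq2 and limma-voom on recovered reads, other size factors, pseudocounts, filters, library weights and fits of 2 groups. Others left out each library or both shallow contact libraries, or added a block by run of library numbers. Counting both BST2 rows, which was chosen after seeing the data, makes the 7 called rows 9 in each comparison. No paired analysis was possible because the groups share no library number. With the block by run, limma called 1069, 244 and 571 genes higher, beside 901, 186 and 469 without it. The order is contact against cells alone, transwell against cells alone and contact against transwell. Without both shallow contact libraries the last count was 305; the cause was not tested. The log2 ratio of BST2 row 2 to row 1 in contact against cells alone, 0.59 with a pseudocount of 1, was 1.34 with 0.5 and -2.01 with 10, because cells alone held 2 reads of row 2. The counts of genes called lower, 726, 14 and 229, ranged over 420 to 1044, 3 to 52 and 84 to 350. The limits are the reads in cells alone for RSAD2, RTP4, BST2 row 2, PLAC8B and PLAC8A, and 4195091 reads in contact library 97.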

Other observations

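Of 32 rows named or described as interferon ligands, 25 were listed at 0 in all 15 libraries and 1 reached 10 normalized counts in any. That row, IFNT, had 18.8 to 71.4 normalized counts in cells alone, 27.3 to 70.3 in transwell and 32.1 to 89.3 in contact, and the 3 groups overlapped. IFNB1 held 6 reads over all libraries.

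In the authors' deposited table the log2 fold changes of the members were smaller and ran in another order. For control minus contact it gives -2.77 for RSAD2, -3.64 for CMPK2, -3.88 for PLAC8B and -2.66 for BST2 row 2, and -5.61 for BST2 row 1. By these deposited fold changes CMPK2 moves further than its neighbour RSAD2. The means of the deposited normalized counts differ from that order. They were 583-fold higher in contact than cells alone for RSAD2 and 31.5-fold higher for CMPK2. The limma fit and DESeq2 on the recovered reads gave RSAD2 9.17 and 9.18 and CMPK2 4.93 and 4.98 for contact minus control, the opposite order; the cause was not tested.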
